A study of Mus musculus with 6 samples.

Results

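The respiratory chain genes are the genes for the protein complexes of the inner mitochondrial membrane that pass electrons to oxygen and use the resulting proton gradient to make ATP, with their assembly factors. They were taken by symbol, as all symbols of the gene table that start with Nduf, Cox4, Cox5, Cox6, Cox7, Cox8, Atp5, Uqcr or Sdh, or with mt-Nd, mt-Co, mt-Atp or mt-Cytb. This gave 111 of 32285 genes, of which 98 are encoded in the nucleus and 13 in mitochondrial DNA. The nuclear genes comprise 7 core subunits, 30 accessory subunits and 8 assembly factors of complex I, 4 subunits and 4 assembly factors of complex II, 8 genes of complex III, 20 of complex IV and 17 of ATP synthase. Nuclear subunits are made in the cytosol and imported, whereas the mitochondrially encoded ones are transcribed and translated inside the organelle, so complexes I, III and IV and ATP synthase need products of both genomes. Complex II has nuclear subunits only. In salivary glands, the duct cells that reabsorb salt are known to be rich in mitochondria.

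The tissue was the submandibular gland, a salivary gland, of wild-type female C57BL/6J mice, an inbred laboratory strain. Its single-cell droplet libraries count unique molecular identifiers (UMIs), 1 for each captured transcript. The 3 libraries were basal cells of untreated glands (sorted as Epcam-positive and high in Cd49f), all Epcam-positive cells of untreated glands, here called the whole epithelium, and all Epcam-positive cells of left glands taken 90 days after 30 Gy of targeted irradiation. Dead cells and cells with Cd3, Cd16/Cd32, Cd31 or Cd45 were gated out. Mice of every library are labelled as 8 to 10 weeks old. As 90 days are longer than 10 weeks, this cannot be the age of the irradiated mice at collection. Age at collection may therefore differ between irradiated and untreated mice, and its part in the results was not tested. Each library pooled cells of 3 mice that carried different antibody hashtags, so the mouse was the replicate (n = 3 per library). Each condition was 1 library, so that library and irradiation, or library and sort, cannot be told apart. Both the irradiated library and the basal sort were compared with the same 3 untreated mice.

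Cells with at least 500 genes, at most 20% mitochondrial UMIs, 1 hashtag and no doublet call were kept, which left 3104 basal sort, 2137 untreated and 2062 irradiated cells. Their UMIs summed to between 7138692 and 27757496 per mouse. Over all deposited barcodes the median mitochondrial share was 5.19%, 19.3% and 5.25% in the 3 libraries. Cell classes were named from marker genes after clustering without respiratory chain or other mitochondrial genes. In the untreated epithelium the 20% limit removed 54.7% of granular duct-like and 17.7% of ionocyte-like cells with a hashtag, against 4.33% and 2.02% in the irradiated one. Of the barcodes of kept cells, 1 was shared by the untreated and the irradiated library.

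The balance between the genomes was not the same in all cell classes of the untreated epithelium. The UMIs of the mitochondrially encoded members were summed in each mouse and divided by those of the nuclear members. In acinar-like cells, which make saliva proteins, this ratio was 4.397, 3.17 and 3.53 in mice 1, 2 and 3. In granular duct-like cells, which store growth factors and kallikreins, it was 2.46, 2.66 and 2.87, below every acinar-like value at the 20% mitochondrial limit. Ionocyte-like cells, a duct class marked by ion transport genes, had ratios of 1.80, 1.94 and 1.95. Intercalated duct-like cells, which join acini to the larger ducts, had 1.78, 1.89 and 1.88. The last pair of classes overlapped, and both lay below every granular duct-like value. The means were 3.70 ± 0.630, 2.66 ± 0.203, 1.90 ± 0.0811 and 1.85 ± 0.0635 (SD, n = 3 mice) in this order, and the differences between classes were not tested. These levels depended on the limit. With it at 40% the means were 4.96 ± 1.42, 3.83 ± 0.525, 2.36 ± 0.230 and 2.26 ± 0.144. With no limit they were 5.78 ± 2.23, 5.25 ± 0.547, 2.50 ± 0.207 and 2.57 ± 0.414. Both at 40% and with no limit, the acinar-like and granular duct-like means were closer than the acinar-like SD. With no limit the last pair also changed places. The acinar-like values rested on 37, 37 and 47 cells per mouse.

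**Figure D1:**
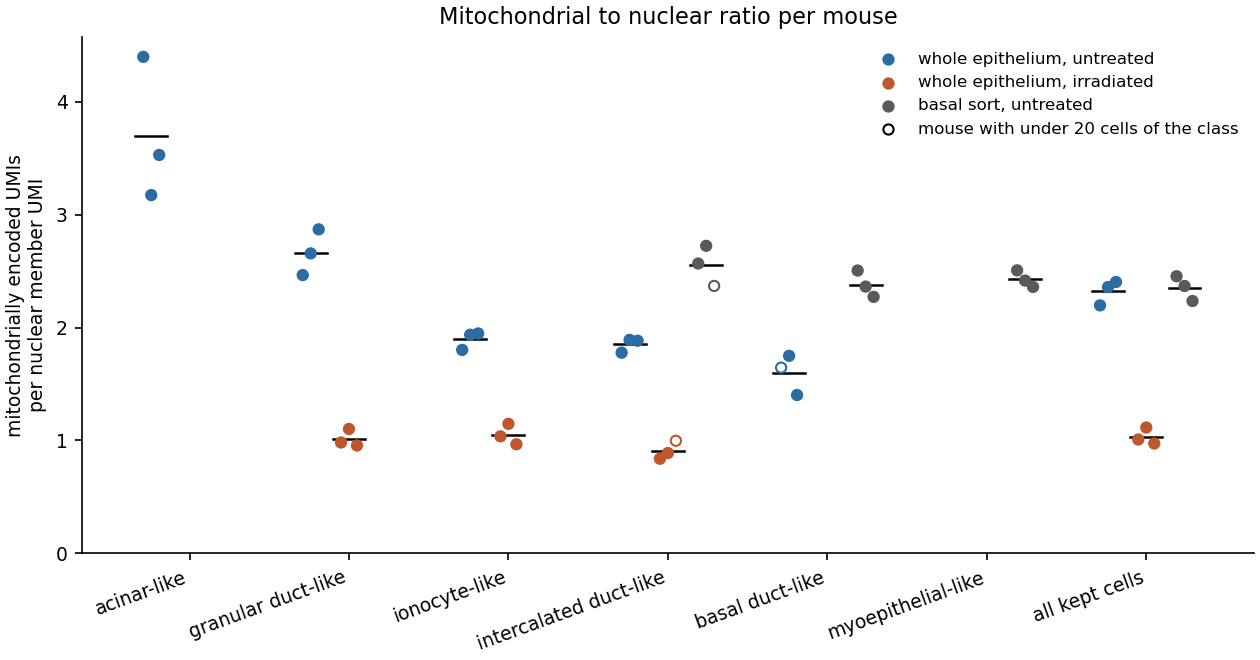
Mitochondrially encoded UMIs per nuclear member UMI (y axis) in each cell class (x axis), 1 point per mouse, coloured by library, at the 20% mitochondrial limit, with the mean as a line and open points for mice with under 20 cells of the class. The irradiated values shown lie between 0.838 and 1.15, below all untreated values shown, of which 1.40 is the lowest. Unnamed, mixed and luminal duct-like cells are not drawn.

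Cells of 1 class gave different ratios in the untreated libraries. Basal duct-like cells, the Krt5 and Krt14 layer next to the basement membrane, stood at 2.38 ± 0.118 in the basal sort and at 1.60 ± 0.178 in the whole epithelium, where the mice held 14, 21 and 21 of them. Intercalated duct-like cells stood at 2.55 ± 0.178 in the basal sort, against 1.85 ± 0.0635 in the whole epithelium. Neither pair overlapped, and neither was tested, because 1 mouse in each held under 20 cells. The intercalated duct-like cells of the libraries were not made up alike. In the basal sort 105 of them came from cluster 7, 7 from cluster 8 and 0 from cluster 17, against 369, 180 and 89 in the whole epithelium. Their acinar markers (2 to 3 of 8 with a UMI in the basal sort, Aqp5 and Bhlha15 at 0, and 7 to 8 of 8 in the whole epithelium) summed to 159 to 164 and 5221 to 11433 CPM. The basal sort marker values are those of mice 1 and 2, as mouse 3 held 19 of these cells. The part of clusters and of markers in the ratios was not tested. Over all kept cells the basal sort mice had 2.45, 2.37 and 2.23 and the whole epithelium mice 2.20, 2.36 and 2.40. These groups overlapped, and their log2 difference was 0.020 ± 0.056 (SE), with p = 0.6 in an exact two-sided permutation test (adjusted 0.6 over 4 ratio tests by Benjamini-Hochberg). It was -0.66 without the mitochondrial limit.

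The nuclear members followed another order when set against the rest of the transcriptome. They took 7.61% ± 0.336 (SD, n = 3 mice) of the non-mitochondrial UMIs in ionocyte-like cells, 4.59% ± 0.321 in granular duct-like cells, 3.95% ± 0.155 in intercalated duct-like cells and 0.474% ± 0.0233 in acinar-like cells. By role, complex IV took 2.36% ± 0.112 in ionocyte-like cells, ATP synthase 2.22% ± 0.101, the accessory subunits of complex I 1.75% ± 0.0667 and complex III 0.884% ± 0.0416. In acinar-like cells, ATP synthase took 0.146% ± 0.00599 and complex IV 0.119% ± 0.00762. The classes with the highest genome ratio and with the highest nuclear share were thus different ones.

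Ionocyte-like cells carried more RNA of nearly the whole respiratory chain than intercalated duct-like cells. Counts were summed per mouse and class, and tested with edgeR at a Benjamini-Hochberg adjusted p of 0.05, with TMM factors that align the bulk of the genes between sums. Of 93 nuclear members tested, 85 were higher and 1 was lower, where 43.1% of all 10229 genes passed, 22.0% higher and 21.1% lower. Of the 13 mitochondrially encoded members, 12 were higher. The median difference was 0.77 (log2) over nuclear and 0.86 over mitochondrially encoded members. All 7 core subunits of complex I, all 4 subunits of complex II, all 8 of complex III and all 17 genes of ATP synthase were higher, and so were 29 of 30 accessory subunits and 14 of 15 complex IV genes. The acinar markers stood at 5221 to 11433 CPM in the intercalated duct-like, 437 to 839 CPM in the ionocyte-like and 315 to 437 CPM in the granular duct-like sums, and their part in the comparisons of these classes was not tested. Plain library totals in place of TMM gave 85 and 1 nuclear members.

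Levels of single genes are given as counts scaled to a common library total with the TMM factors (CPM). These factors were set anew in each fit, so CPM of the same cells differ between fits and compare only within a fit. The classes of the untreated epithelium shared 1 fit, and each irradiation comparison had its own. Uqcr10, a small subunit of complex III, stood at 354, 335 and 304 CPM in intercalated duct-like cells of mice 1, 2 and 3 and at 908, 795 and 797 CPM in their ionocyte-like cells. The classes did not overlap, and the difference was 1.33 ± 0.094 (SE, log2, edgeR adjusted p = 3.18e-11). Atp5g1, one of the genes for the rotor ring of ATP synthase, stood at 273, 241 and 223 CPM against 651, 580.1 and 532 CPM, without overlap, and differed by 1.26 ± 0.091 (log2). Atp5b, the catalytic beta subunit, differed by 1.19 ± 0.091, Cox5a, a nuclear subunit of complex IV, by 1.199 ± 0.10, Ndufc1, an accessory subunit of complex I, by 1.13 ± 0.097, and Sdha, the flavoprotein of complex II, by 0.62 ± 0.097. mt-Nd1, of complex I, differed by 1.04 ± 0.11. mt-Nd6, the protein gene on the opposite strand of mitochondrial DNA to all the others, stood at 0.25 ± 0.12 and did not pass (edgeR adjusted p = 0.111).

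Granular duct-like cells were also above intercalated duct-like cells, in 79 of 93 nuclear members, with 3 lower, and in all 13 mitochondrially encoded ones (44.1% of all 10229 genes passed, 22.1% higher and 22.0% lower). With plain library totals, which move this comparison by -0.58 (log2), 33 nuclear members were higher and 20 lower, and 12 mitochondrially encoded members were higher. Ndufs1, an iron-sulfur core subunit of complex I, stood at 21.0, 16.9 and 18.2 CPM in intercalated and at 60.3, 51.0 and 59.3 CPM in granular duct-like cells. It was higher in the granular duct-like cells of all 3 mice, by 1.60 ± 0.13 (log2, edgeR adjusted p = 4.2e-10). Ndufa1, an accessory subunit of complex I, differed by 1.51 ± 0.088, Sdha by 1.08 ± 0.094 and mt-Nd4l, a small complex I subunit, by 1.65 ± 0.11.

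Set against each other, ionocyte-like cells were above granular duct-like cells in 29 and below in 16 of 93 nuclear members, and below in 12 of 13 mitochondrially encoded ones (42.8% of all 10229 genes passed, 21.5% higher and 21.3% lower). The split depended on the scaling. Scaled by plain totals it was 81 above and 1 below among nuclear members, and 6 above and 1 below among mitochondrially encoded ones. Without untreated mouse 3, 10 nuclear and 6 mitochondrially encoded members were below. Without the mitochondrial limit 17 nuclear members were above. Uqcr10 was higher under both scalings, at 454, 401 and 386 CPM in granular duct-like cells against the ionocyte-like levels given above, a difference of 1.01 ± 0.093 (log2, edgeR adjusted p = 3.52e-09).

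For acinar-like cells the direction depended wholly on the scaling. With TMM, 33 nuclear members were above and 6 below intercalated duct-like cells, and all 13 mitochondrially encoded members were above (36.1% of all 10229 genes passed, 17.3% higher and 18.8% lower). Under plain totals all 93 nuclear and all 13 mitochondrially encoded members were below, and the TMM factors of the 2 classes differed by -3.20 (log2). Without untreated mouse 3 the TMM count above was 20, and without untreated mouse 1 the count below was 3.

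Some subunits of complex IV have a form that is known for restricted use, in heart, muscle, brown fat or testis, beside a common one. Cox7a1, the heart and muscle form of Cox7a, stood at 14.1, 18.03 and 12.5 CPM in intercalated duct-like cells, at 55.7, 59.7 and 59.5 CPM in granular duct-like cells and at 191, 168 and 145 CPM in ionocyte-like cells. The 3 classes did not overlap. Ionocyte-like cells were above intercalated duct-like cells by 3.50 ± 0.16 (log2, edgeR adjusted p = 1.1e-14) and above granular duct-like cells by 1.53 ± 0.13 (edgeR adjusted p = 8.62e-10). For Cox7a2, its common form, these differences were 1.15 ± 0.095 and 0.22 ± 0.093, and the latter did not pass (edgeR adjusted p = 0.0582).

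Cox8b, the muscle and brown fat form of Cox8, stood at 0, 2.22 and 2.16 CPM in intercalated duct-like cells, at 31.7, 33.2 and 33.4 CPM in granular duct-like cells and at 2.93, 2.43 and 6.23 CPM in ionocyte-like cells. Granular duct-like levels lay far above the rest, and ionocyte-like cells differed from them by -3.13 ± 0.27 (log2, edgeR adjusted p = 9.55e-10). Cox8a, its common form, differed by 0.43 ± 0.096 in the opposite direction. Cox6b2, the testis form of Cox6b, stood at 3.86, 3.05 and 5.52 CPM in intercalated duct-like cells, at 0.630, 0.965 and 0.856 CPM in granular duct-like cells and at 8.12, 9.46 and 9.51 CPM in ionocyte-like cells. Its 3 classes did not overlap, and ionocyte-like cells were above granular duct-like cells by 3.41 ± 0.35 (log2, edgeR adjusted p = 2.51e-08). The granular duct-like levels of Cox6b2 rested on few counts, so the size of this difference is uncertain. With plain library totals the ionocyte-like minus granular duct-like differences of Cox7a1, Cox8b and Cox6b2 were 2.12, -2.54 and 4.01. No UMI of Cox4i2, Cox6a2 or Cox7b2 was found in the untreated epithelium.

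**Figure D2:**
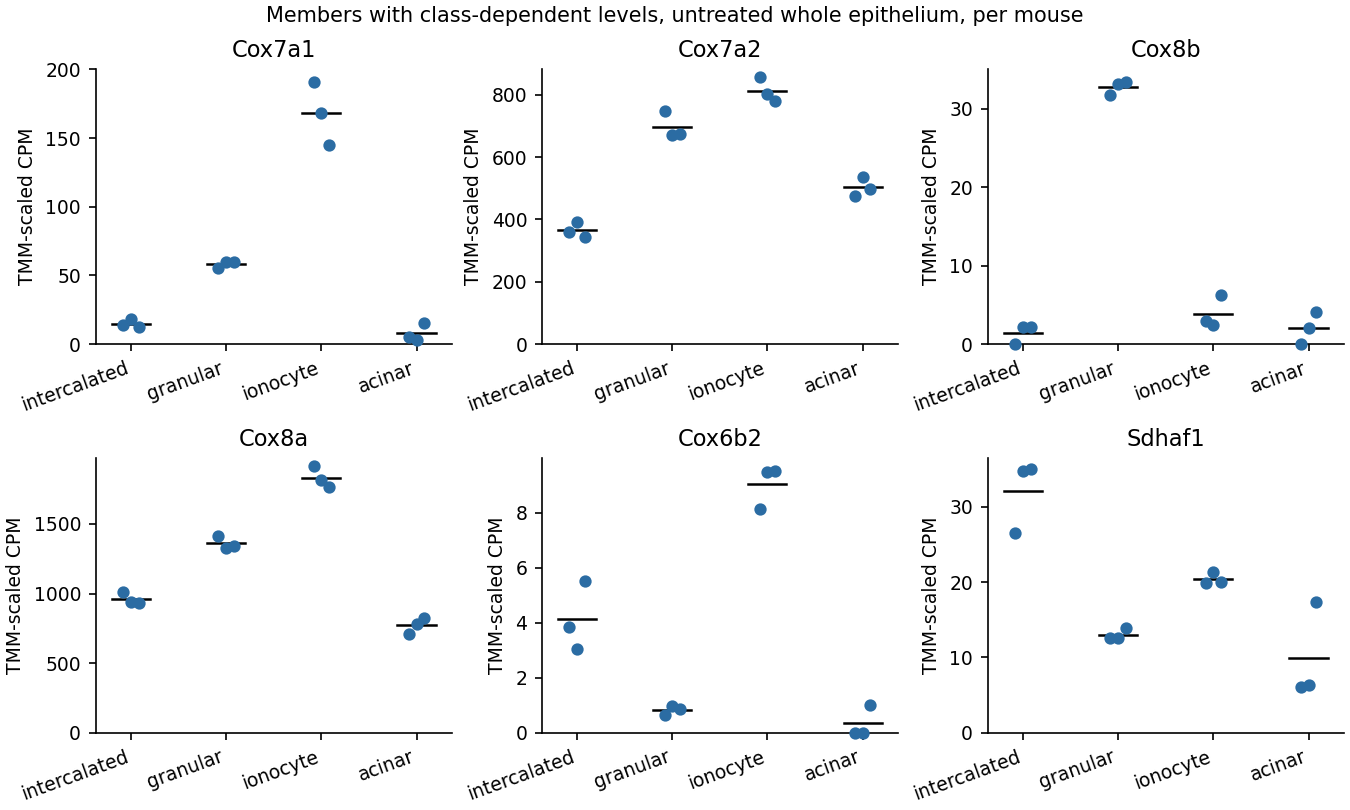
Level in TMM-scaled CPM (y axis, its own range for each gene) of 6 members in 4 cell classes of the untreated epithelium (x axis), 1 point per mouse and the mean as a line. Cox7a1 and Cox6b2 are highest in ionocyte-like cells, Cox8b in granular duct-like cells and Sdhaf1 in intercalated duct-like cells, while the acinar-like levels depend on the scaling.

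Sdhaf1, a factor that helps to build the iron-sulfur subunit of complex II, was picked after its values were seen. It stood at 26.5, 34.7 and 35.01 CPM in intercalated duct-like cells, at 12.6, 12.5 and 13.9 CPM in granular duct-like cells and at 19.8, 21.3 and 19.99 CPM in ionocyte-like cells, and the classes did not overlap. It was the single nuclear member below intercalated duct-like cells in the ionocyte-like comparison, at -0.64 ± 0.15 (log2, edgeR adjusted p = 0.00138).

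The start regions of the nuclear members were read for motifs of factors known to act on respiratory genes. RefSeq windows of GRCm38.p6, from 250 bases before to 50 after a gene's start, matched 79 of the 98 nuclear members by symbol, and both strands were read. The core of the NRF1 site, 1 base of which was left free and whose matches are in capitals in the windows of Sdha and Uqcrc1 below, was found in 21 members (26.6%) and in 5.19% of all 27025 genes with a window. AAGATGGC, the YY1 site, was found in 10 members (12.7%) and 3.19% of all genes. CCGGAAGT, an ETS site as bound by GABPA, was in 5 (6.33%) and 4.31%, and TCAAGGTCA, the site of estrogen-related receptors, in 2 (2.53%) and 0.466%. The NRF1 motif was in 6 of 14 ATP synthase genes, 7 of 27 accessory and 0 of 5 core subunits of complex I, 2 of 3 complex II genes, 1 of 5 of complex III and 1 of 14 of complex IV. CAGCTG, an E-box, and TATAAA, a core promoter motif, were added after the members were seen and were in 6 (7.59%) and 9 (11.4%) of the members, against 18.3% and 15.7% of all genes. None of these motifs contains another, and a match describes only the letters.

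Cox8b and Cox8a are shown as paired forms with opposite differences between the duct classes, and Sdha and Uqcrc1 as members that were lower in irradiated granular duct-like cells. Each window runs 5′ to 3′ along the gene. Capitals mark CAGCTG and TATAAA in Cox8b, CCGGAAGT read on the opposite strand in Cox8a, and the NRF1 motif on either strand in Sdha and Uqcrc1.
Cox8b (complex IV, restricted form, chr7:140900397-140900696, minus strand): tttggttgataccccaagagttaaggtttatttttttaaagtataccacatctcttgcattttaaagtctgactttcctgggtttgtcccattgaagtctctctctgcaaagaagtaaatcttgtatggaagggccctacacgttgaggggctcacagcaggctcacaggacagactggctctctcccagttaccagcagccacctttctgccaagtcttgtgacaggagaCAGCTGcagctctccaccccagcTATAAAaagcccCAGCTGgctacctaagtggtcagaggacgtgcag
Cox8a (complex IV, common form, chr19:7217567-7217866, minus strand): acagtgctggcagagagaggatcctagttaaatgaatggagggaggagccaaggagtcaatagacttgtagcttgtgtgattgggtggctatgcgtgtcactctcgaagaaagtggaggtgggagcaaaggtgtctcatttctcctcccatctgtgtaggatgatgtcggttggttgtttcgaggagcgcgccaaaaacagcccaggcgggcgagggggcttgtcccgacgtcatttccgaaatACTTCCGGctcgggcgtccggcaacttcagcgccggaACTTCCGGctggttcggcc
Sdha (complex II, chr13:74350191-74350490, minus strand): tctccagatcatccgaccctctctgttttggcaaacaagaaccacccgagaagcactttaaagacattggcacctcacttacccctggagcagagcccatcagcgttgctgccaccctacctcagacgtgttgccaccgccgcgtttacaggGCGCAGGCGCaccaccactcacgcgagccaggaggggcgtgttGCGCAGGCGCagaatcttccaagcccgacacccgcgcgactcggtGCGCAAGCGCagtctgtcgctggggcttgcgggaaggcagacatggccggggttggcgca
Uqcrc1 (complex III, chr9:108936398-108936697, plus strand): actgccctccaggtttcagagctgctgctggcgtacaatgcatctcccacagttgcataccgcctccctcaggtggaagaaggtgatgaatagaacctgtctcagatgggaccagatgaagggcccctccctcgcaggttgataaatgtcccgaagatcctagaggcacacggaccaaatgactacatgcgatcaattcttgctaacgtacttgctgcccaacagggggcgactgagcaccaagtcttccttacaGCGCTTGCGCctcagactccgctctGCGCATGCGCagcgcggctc

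The basal sort held less respiratory chain RNA per scaled total than the whole epithelium. Of 94 nuclear members, 90 were lower and 2 higher, and all 13 mitochondrially encoded members were lower, where 73.2% of all 12933 genes passed, 36.2% higher and 37.0% lower. The medians were -1.19 and -1.12 (log2). These sums mix classes, and in any such sum fewer cells of a type and less RNA per cell cannot be told apart. Cox7a1 stood at 2.99, 2.83 and 2.35 CPM in the basal sort and at 118, 96.8 and 84.1 CPM in the whole epithelium, without overlap (-5.18 ± 0.17, log2, edgeR adjusted p = 5.16e-08). Ndufb7, an accessory subunit of complex I, stood at 62.8, 60.2 and 59.9 CPM against 305, 264 and 252 CPM, also without overlap (-2.17 ± 0.096). Cox5a differed by -1.80 ± 0.095, Ndufs7, a core subunit of complex I, by -1.91 ± 0.099, Sdhb, the iron-sulfur subunit of complex II, by -1.67 ± 0.089 and Uqcrq, of complex III, by -1.51 ± 0.092.

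The 2 nuclear members that were higher in the basal sort were Cox7a2l and Cox6b2. Cox7a2l, counted here with complex IV, stood at 409.5, 435 and 411 CPM in the basal sort and at 243, 269 and 260.1 CPM in the whole epithelium. Every basal sort value was higher (0.70 ± 0.081, log2, edgeR adjusted p = 4.6e-05). Cox6b2 stood at 12.4, 10.0 and 14.0 CPM against 5.73, 6.38 and 6.29 CPM and did not overlap either (0.99 ± 0.15, edgeR adjusted p = 0.000307).

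Within the basal sort, myoepithelial-like cells, the contractile cells around acini and ducts, differed from basal duct-like cells role by role. Of 92 nuclear members, 40 were lower and 18 higher, and 12 of 13 mitochondrially encoded members were lower (51.5% of all 11010 genes passed, 24.6% higher and 26.9% lower). Lower were 16 of 17 ATP synthase, 6 of 8 complex III and 9 of 14 complex IV genes, with none higher. Of the accessory subunits of complex I, 10 were higher and 5 lower. Markers of other cell types also stood higher in the myoepithelial-like sums. The pericyte markers (3 to 5 of 5 with a UMI) summed to 7.54, 553 and 235 CPM in mice 1, 2 and 3, against 1.32 to 2.13 CPM in basal duct-like cells. The Schwann cell markers (4 to 5 of 5) stood at 62.0 to 204 against 1.48 to 3.24 CPM, and the immune markers (1 to 3 of 7, Ptprc at 0) at 60.4 to 73.0 against 4.31 to 6.15 CPM. Their part in this comparison was not tested. Scaling by plain totals gave 18 nuclear members lower and 39 higher, and 3 mitochondrially encoded members lower and 3 higher. Without mouse 3 of the sort, 5 mitochondrially encoded members were lower and 10 nuclear members higher, and without its mouse 1 the latter count was 11. DESeq2 called 10 nuclear members higher.

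Uqcrh, the hinge subunit of complex III, stood at 1084, 1129 and 1099.8 CPM in basal duct-like cells and at 477, 506 and 498 CPM in myoepithelial-like cells. All myoepithelial-like levels were lower (-1.16 ± 0.081, log2, edgeR adjusted p = 1.06e-09). Ndufa11, an accessory subunit of complex I, went the other way, at 241, 229.9 and 265 CPM against 545, 461 and 600.5 CPM (1.13 ± 0.097, edgeR adjusted p = 2.07e-08). Cox7a2l stood at 610.4, 629 and 606 CPM against 255, 274 and 257 CPM, without overlap (-1.23 ± 0.095, edgeR adjusted p = 4.69e-09). Among assembly factors of complex I, Ndufaf3 was higher (1.198 ± 0.22) and Ndufaf4 lower (-1.32 ± 0.24). Atp5b differed by -0.97 ± 0.083, Atp5o, of the stalk of ATP synthase, by -1.08 ± 0.12 and mt-Co1, the catalytic subunit of complex IV, by -0.75 ± 0.045.

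In every irradiated mouse the mitochondrially encoded RNA was lower, relative to the RNA of the nuclear members, than in any untreated mouse. In granular duct-like cells the ratio was 2.46, 2.66 and 2.87 in untreated mice and 0.982, 1.10 and 0.956 in irradiated mice. In ionocyte-like cells it was 1.80, 1.94 and 1.95 against 1.04, 1.15 and 0.966. Neither class overlapped between the libraries. The log2 differences were -1.39 ± 0.089 (SE, 2.63-fold lower) and -0.85 ± 0.080 (1.81-fold lower). Over all kept cells the ratio stood at 2.32 ± 0.109 in untreated and 1.03 ± 0.0736 in irradiated mice (SD, n = 3 mice), a log2 difference of -1.17 ± 0.071. For each of these 3 differences the exact two-sided permutation test gave p = 0.1, the smallest that 3 against 3 mice allow (adjusted 0.133), so none could pass 0.05. Intercalated duct-like cells stood at 1.85 ± 0.0635 and 0.908 ± 0.0815 with no test, as 1 irradiated mouse held 15 of them. The markers of these cells differed between the libraries, as given below. A cluster with ionocyte markers but low UMI counts was left unnamed. Its ratio was 3.23, 5.98 and 2.67 in untreated mice (19, 17 and 24 cells). In irradiated mice it was 2.09, 1.45 and 1.96 (37, 43 and 41 cells), above the irradiated ionocyte-like values.

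The difference was not smaller without the mitochondrial limit, where it was -2.27 in granular duct-like, -1.21 in ionocyte-like and -1.88 in all cells (log2). Other values moved with the library. The median UMI count per cell was 17806 to 18741 in untreated and 22639 to 26822 in irradiated granular duct-like cells, and 10952.5 to 11751 and 15838 to 17805 in ionocyte-like cells. The summed level of the acinar markers (7 of 8 with a UMI in untreated and 5 to 7 of 8 in irradiated mice) was 315 to 437 CPM in untreated and 5.92 to 18.05 CPM in irradiated granular duct-like cells. The luminal duct markers stood at 3884 to 4840.2 and 9163 to 9645 CPM there, and the striated duct markers at 6659 to 7324 and 3448 to 3857 CPM. In ionocyte-like cells the acinar markers stood at 437 to 839 and 7.46 to 9.23 CPM, the luminal duct markers at 3340.2 to 3804 and 6811 to 7695 CPM and the striated duct markers at 11103 to 11733 and 6118 to 8234 CPM. Other lists without overlap between the libraries in ionocyte-like cells were the basal duct markers (1 to 4 of 8 and 3 to 7 of 8 with a UMI, Trp63 at 0) at 0.636 to 31.9 and 54.4 to 260.0 CPM, the fibroblast markers (2 to 3 of 7 and 1 to 2 of 7, Col1a1 at 0) at 39.9 to 95.7 and 216 to 508 CPM and the immune markers (4 to 5 of 7 and 2 to 6 of 7, Cd3e at 0) at 2.07 to 5.68 and 10.3 to 56.9 CPM. The granular duct markers there stood at 7434 to 10418 and 3068 to 4698 CPM, the pericyte markers at 96.4 to 161 and 62.4 to 72.0 CPM and the ionocyte markers themselves at 3161 to 3469 and 2191 to 2736 CPM. The Schwann cell markers there stood at 1.31 to 3.11 and 0 to 0.804 CPM and the cycling markers at 0 to 2.07 and 2.22 to 2.80 CPM. In granular duct-like cells the ionocyte markers stood at 245 to 268 and 283 to 349 CPM and the intercalated duct markers at 20.7 to 27.9 and 12.5 to 19.2 CPM, and the fibroblast, pericyte and cycling markers, also without overlap, were all under 10 CPM. Granular duct-like cells came from different clusters in the untreated (cluster 5) and irradiated (clusters 2, 10 and 16) libraries, as did ionocyte-like cells (clusters 6 and 4). Of the irradiated intercalated duct-like cells 6, 103 and 1 came from clusters 7, 8 and 17, against 369, 180 and 89 of the untreated ones. Their acinar markers stood at 5221 to 11433 CPM in untreated mice and at 12001 to 22575 CPM in irradiated mice 1 and 2. The intercalated duct markers that name the class stood at 1564 to 2084 and 454 to 563 CPM. Their luminal duct markers stood at 1369 to 2762 and 4667 to 11153 CPM, and their basal duct markers at 6.08 to 11.8 and 494 to 1631 CPM. The class was thus not alike in the libraries. Irradiated mouse 3, with 15 of these cells, was left out of these ranges. The part of depth, markers and clusters in the irradiation results was not tested.

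In granular duct-like cells all 13 mitochondrially encoded members were lower after irradiation, where 38.4% of all 9813 genes passed, 19.1% higher and 19.3% lower. mt-Co3, a core subunit of complex IV, stood at 19107, 19019 and 20373 CPM in untreated and at 5170.1, 6057 and 5368 CPM in irradiated mice. Every irradiated value was far below, and the change of -1.82 ± 0.093 (log2, edgeR adjusted p = 2.58e-07) was the largest of the 13. mt-Atp6, the proton channel subunit of ATP synthase, stood at 18146, 17842 and 19834 CPM against 5225, 6374 and 5634 CPM, again without overlap (-1.70 ± 0.099). The complex I subunit mt-Nd2 changed by -1.54 ± 0.096, the complex IV subunits mt-Co2 and mt-Co1 by -1.44 ± 0.091 and -1.32 ± 0.093, and mt-Cytb, of complex III, by -1.32 ± 0.089. mt-Nd3, mt-Nd1, mt-Atp8 and mt-Nd4 changed by -1.29 ± 0.11, -1.28 ± 0.090, -1.14 ± 0.10 and -1.03 ± 0.088.

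The smallest change of the 13 was that of mt-Nd4l, which shares a transcript with mt-Nd4. It stood at 1136, 1140.3 and 1238 CPM in untreated and at 891, 947 and 872 CPM in irradiated mice. The groups did not overlap (-0.37 ± 0.090, log2, edgeR adjusted p = 0.00655). mt-Nd6 stood at 59.0, 65.1 and 69.8 CPM against 36.7, 38.5 and 38.5 CPM, without overlap (-0.77 ± 0.10), and mt-Nd5 changed by -0.75 ± 0.093. In the make-up of the mitochondrially encoded RNA, mt-Co3 stood at 17.7% ± 0.142 of it in untreated and 13.5% ± 0.218 in irradiated mice, and mt-Nd4l at 1.06% ± 0.0160 and 2.20% ± 0.0753 (SD, n = 3 mice).

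**Figure D3:**
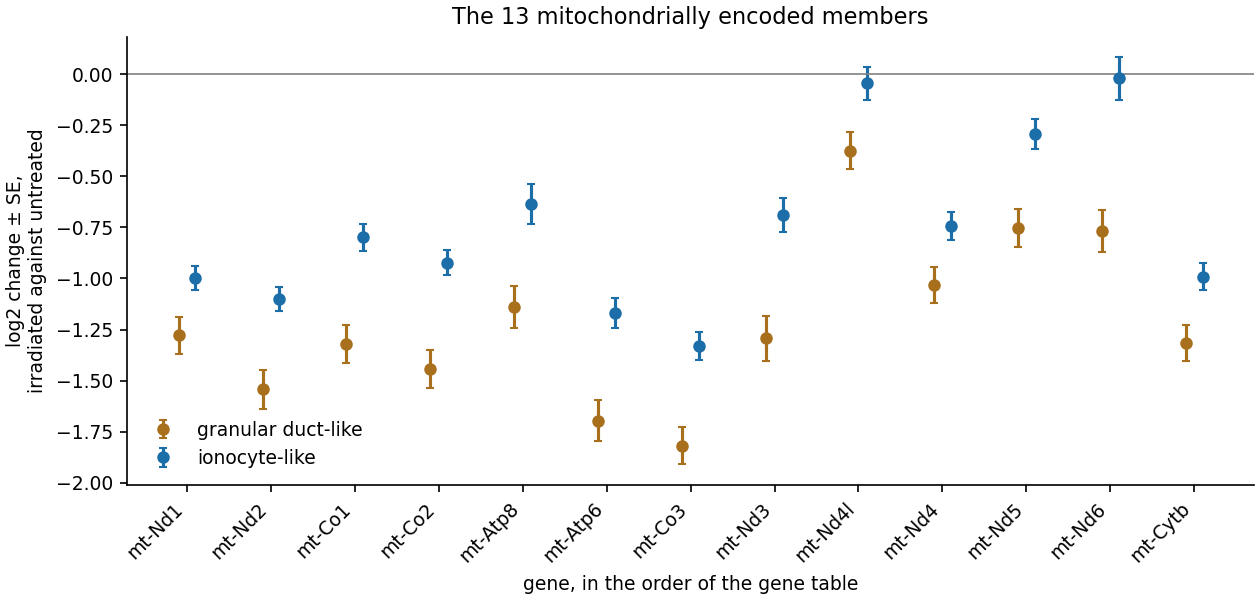
Change after irradiation (y axis, log2 ± SE from edgeR) of the 13 mitochondrially encoded members (x axis) in granular duct-like and ionocyte-like cells. For each gene the granular duct-like point is the lower one, and the ionocyte-like points of mt-Nd4l and mt-Nd6 lie at -0.046 and -0.021.

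In ionocyte-like cells 11 of the 13 were lower and 0 higher, where 25.5% of all 8847 genes passed, 15% higher and 10.4% lower. mt-Co3 stood at 23821, 24429 and 23853 CPM in untreated and at 8793, 10869.9 and 9004 CPM in irradiated mice. It again had the largest change of the 13 (-1.33 ± 0.068, log2, edgeR adjusted p = 1.83e-08). mt-Atp6 changed by -1.17 ± 0.072, mt-Nd2 by -1.10 ± 0.060, mt-Nd1 by -0.999 ± 0.058 and mt-Cytb by -0.99 ± 0.065, and mt-Co2, mt-Co1, mt-Nd4, mt-Nd3 and mt-Atp8 between -0.92 and -0.64. mt-Nd5 changed by -0.29 ± 0.073 (edgeR adjusted p = 0.00978), a call lost without irradiated mouse 3. mt-Nd4l stood at 941, 1016 and 909 CPM in untreated and at 864, 1024 and 883 CPM in irradiated mice, with overlap (-0.046 ± 0.080, edgeR adjusted p = 0.73). mt-Nd6 stood at 72.7, 66.3 and 78.1 CPM against 68.2, 73.9 and 69.4 CPM, also with overlap (-0.021 ± 0.10, edgeR adjusted p = 0.988).

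Nuclear members passed in both directions. In granular duct-like cells 27 of 93 were lower and 11 higher, together near the background of 38.4% in either direction, with a median of -0.14 (log2) against -1.29 for the mitochondrially encoded members. Without untreated mouse 1 the lower count was 17, and without untreated or irradiated mouse 2 the higher count was 7. Without the mitochondrial limit 44 were lower and 7 higher.

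All 4 subunits of complex II were lower in granular duct-like cells. Sdha stood at 166, 159 and 155 CPM in untreated and at 113, 109 and 121 CPM in irradiated mice, without overlap (-0.49 ± 0.093, log2, edgeR adjusted p = 0.0017). Its partners Sdhb, Sdhc and Sdhd changed by -0.48, -0.34 and -0.44. Of the core subunits of complex I, 4 of 7 were lower and 0 higher. Ndufs1 stood at 78.5, 66.4 and 77.0 CPM against 45.5, 45.2 and 47.9 CPM, with all irradiated values below (-0.68 ± 0.10, edgeR adjusted p = 0.000354). Of 30 accessory subunits, 5 were lower and 3 higher, from Ndufb10 (-0.49 ± 0.095) to Ndufb1-ps (0.61 ± 0.10). The symbol of Ndufb1-ps has an ending used for pseudogenes, and whether this gene codes for a protein was not examined. Uqcrc1, a core protein of complex III, was lower (-0.47 ± 0.10) and Uqcr10 higher (0.39 ± 0.095). Ndufaf4, an assembly factor of complex I, changed by -0.51 ± 0.17, a call lost without untreated mouse 1 or irradiated mouse 1 or 3.

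ATP synthase and complex IV genes passed in both directions in granular duct-like cells, with 5 lower and 4 higher of 17, and 3 and 3 of 15, near the 19.3% lower and 19.1% higher of all genes. Atp5b stood at 1433, 1307 and 1344 CPM in untreated and at 933, 933 and 875 CPM in irradiated mice (-0.58 ± 0.089, log2, edgeR adjusted p = 0.000423). Atp5md, a small membrane subunit, went the other way, from 459.8, 409 and 419 to 590.0, 615 and 612 CPM (0.50 ± 0.091, edgeR adjusted p = 0.00131). Neither gene overlapped between the groups. Cox7c, a small subunit of complex IV, was higher (0.43 ± 0.087) and Cox4i1, a nuclear subunit that regulates the complex, lower (-0.28 ± 0.084, edgeR adjusted p = 0.0218). The Cox4i1 call was lost in 4 of the 6 fits that left out 1 mouse.

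**Figure D4:**
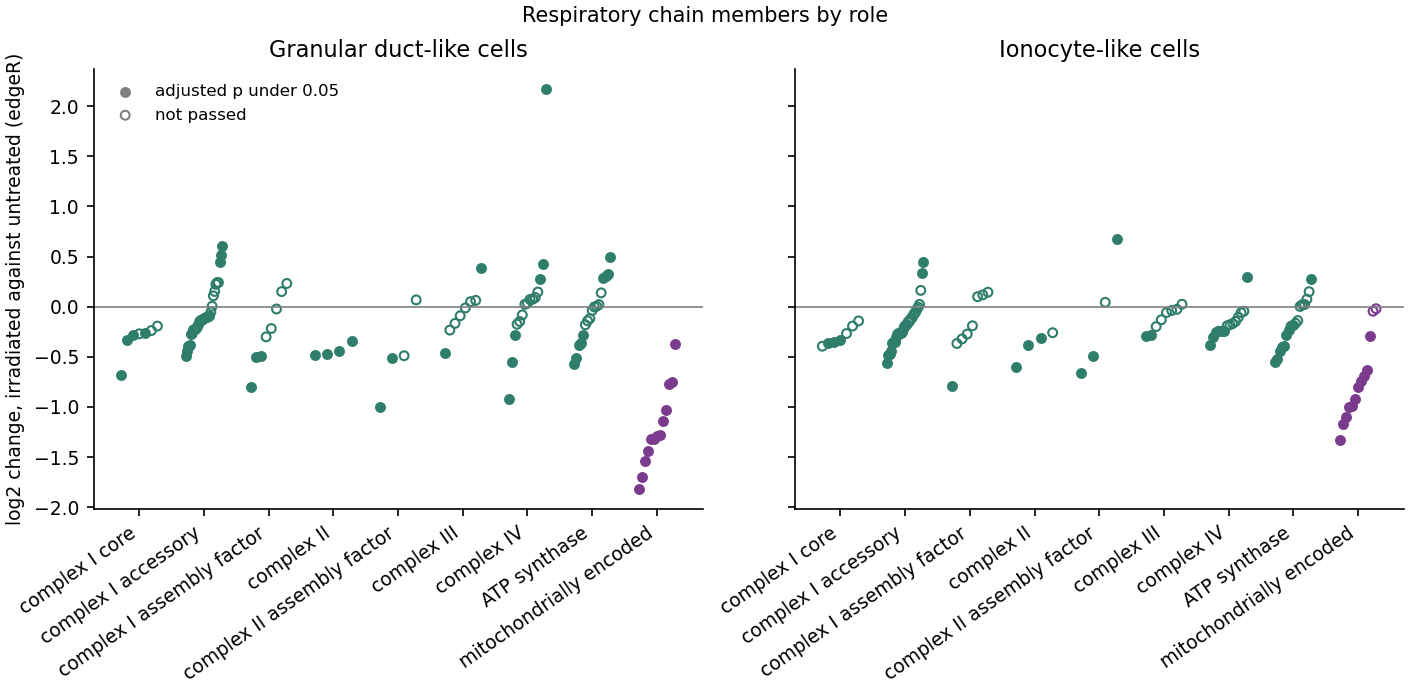
Change after irradiation (y axis, log2) of each tested member by role (x axis) in granular duct-like cells (left) and ionocyte-like cells (right), 1 point per gene, filled where the edgeR adjusted p is under 0.05. Mitochondrially encoded members reach -1.82 and -1.33, and nuclear members lie on both sides of 0, with Cox6b2 at 2.17 as the highest point.

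Of the restricted forms of complex IV subunits, Cox8b, Cox7a1 and Cox6b2 passed in irradiated granular duct-like cells. Cox8b stood at 41.3, 43.2 and 43.4 CPM in untreated and at 22.2, 21.6 and 24.2 CPM in irradiated mice, without overlap (-0.92 ± 0.11, log2, edgeR adjusted p = 6.22e-05). Cox7a1 stood at 72.4, 77.7 and 77.3 CPM against 53.8, 56.1 and 44.4 CPM, also without overlap (-0.55 ± 0.11, edgeR adjusted p = 0.0022). Cox6b2 rose from 0.820, 1.26 and 1.11 to 5.56, 5.01 and 4.01 CPM, a low level in both groups (2.17 ± 0.33, edgeR adjusted p = 0.00036). Cox8a, Cox7a2 and Cox6b1, the common forms, stood at 0.15 ± 0.086, 0.074 ± 0.090 and 0.023 ± 0.088 and did not pass.

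In ionocyte-like cells 38 of 92 nuclear members were lower and 5 higher, against 10.4% lower and 15% higher over all genes. The median was -0.20 (log2), against -0.80 for the mitochondrially encoded members. Without untreated mouse 1 the lower count was 23, and without irradiated mouse 1 it was 25. Lower were 8 of 17 ATP synthase genes, 14 of 30 accessory subunits and 5 of 14 complex IV genes. Atp5b stood at 2189, 2111 and 2087 CPM in untreated and at 1376, 1557 and 1498 CPM in irradiated mice, without overlap (-0.53 ± 0.064, edgeR adjusted p = 4.36e-05). Cox4i1 stood at 2344, 2338 and 2262 CPM against 1720.3, 1842 and 1756 CPM, also without overlap (-0.38 ± 0.058, edgeR adjusted p = 0.000269).

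Atp5g1 changed by -0.56 ± 0.077 (log2) in ionocyte-like cells, Ndufs6, an accessory subunit of complex I, by -0.56 ± 0.092, Ndufaf4 by -0.79 ± 0.13, and Sdhd, a membrane anchor of complex II, by -0.60 ± 0.098. Higher were Ndufb1-ps (0.45 ± 0.072), Cox7c (0.29 ± 0.061) and Atp5md (0.28 ± 0.071). Sdha stood at -0.26 ± 0.094 and did not pass (edgeR adjusted p = 0.0588). Over all kept cells of the epithelium, Ndufb1-ps, Atp5md and Cox7c were at 0.68, 0.62 and 0.59.

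Over all kept cells 12 of 13 mitochondrially encoded members were lower, and 15 of 93 nuclear members were higher and 8 lower (40.7% of all 11970 genes passed, 20.8% higher and 20% lower). The exception was mt-Nd4l, at 0.041 ± 0.083 (log2, edgeR adjusted p = 0.725). With plain library totals 58 nuclear members were higher and 0 lower, and 10 mitochondrially encoded members were lower and 1 higher. The higher count was 8 without untreated mouse 2 or 3 or irradiated mouse 2. The lower count was 2, 4 and 5 without untreated mouse 1, 2 and 3, and 3 without irradiated mouse 1 or 2. The classes were present in different numbers in the libraries, with 189, 226 and 201 granular duct-like cells in the untreated and 214, 670 and 244 in the irradiated mice, and 208, 189 and 241 against 24, 71 and 15 intercalated duct-like cells.

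The irradiation change itself differed between the classes for 21 members, in a fit of both classes with the mouse as a block, where 11.7% of all 10454 genes passed, 5.45% higher and 6.29% lower. Of the mitochondrially encoded members 10 of 13 had a less negative change in ionocyte-like cells, and of the nuclear members 9 had a lower and 2 a higher change there. Cox8b is among the 9, although it was too low in ionocyte-like cells to be tested there alone and entered through its granular duct-like level. Without untreated mouse 3, 6 mitochondrially encoded members passed. The lower nuclear count was 2 without untreated mouse 1 or 2 or irradiated mouse 3, 1 without untreated mouse 3 and 5 without irradiated mouse 1, and the higher one was 1 without any 1 of the 6 mice. DESeq2 gave 6 mitochondrially encoded and 2 lower nuclear members. Sdhaf1, picked after its values were seen, was lower in irradiated granular duct-like cells, at 16.4, 16.3 and 18.1 CPM against 9.50, 8.63 and 7.28 CPM, and higher in irradiated ionocyte-like cells, at 37.9, 41.2 and 38.4 CPM against 69.1, 54.0 and 70.1 CPM. Neither class overlapped between libraries, and the changes differed by 1.64 ± 0.21 (log2, edgeR adjusted p = 3.25e-05). These CPM come from a separate fit for each class and do not compare between the classes. For Cox6b2, which did not pass in ionocyte-like cells (-0.18 ± 0.19), the changes differed by -2.35 ± 0.40 (edgeR adjusted p = 0.000546). Its untreated granular duct-like level was very low, so the size of this value is uncertain.

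Other mitochondrial genes were read in 6 lists beside the respiratory chain. Over all genes, 38.4% passed in irradiated granular duct-like cells (19.3% lower, 19.1% higher, median -0.029) and 25.5% in ionocyte-like cells (10.4% lower, 15% higher, median -0.020). Of the citric acid cycle and electron carrier genes, 10 of 21 were lower and 0 higher in irradiated granular duct-like cells, and 10 and 0 of 21 in ionocyte-like cells (medians -0.31 and -0.20, log2). In untreated mice 18 of them were higher in ionocyte-like and 20 in granular duct-like than in intercalated duct-like cells, where 22.0% and 22.1% of all genes were higher. Of the genes for upkeep and transcription of mitochondrial DNA, 6 of 20 were lower and 1 higher in irradiated granular duct-like cells, and 2 and 1 of 18 in ionocyte-like cells. Both directions together were no larger a share than over all genes. The lower share alone was above the 19.3% of all genes in granular duct-like cells and near the 10.4% in ionocyte-like cells. The medians were -0.36 and -0.17 (log2). Lrpprc, which stabilises mitochondrial messenger RNA, changed by -0.78 ± 0.17 (edgeR adjusted p = 0.00367) in granular duct-like cells and stood at -0.062 ± 0.26 in ionocyte-like cells (edgeR adjusted p = 0.895). Tfam, which packages mitochondrial DNA, stood at -0.13 ± 0.14 in granular duct-like cells and did not pass.

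Of the regulators of mitochondrial biogenesis, 3 of 9 were lower and 1 higher in irradiated granular duct-like cells, and 1 and 1 of 8 in ionocyte-like cells. Esrra, a nuclear receptor for respiratory genes, changed by -0.64 ± 0.11 and -0.60 ± 0.10 (log2, edgeR adjusted p = 0.00118 and 0.000691). In untreated mice Ppargc1a, a coactivator of these genes, was above intercalated duct-like cells by 3.09 ± 0.11 in granular duct-like and by 1.90 ± 0.11 in ionocyte-like cells. For the remaining lists the share that passed in granular duct-like cells was near or below that of all genes. For import and carrier genes the irradiated counts were 4 lower and 5 higher of 25 in granular duct-like and 3 and 1 in ionocyte-like cells. For glycolysis genes they were 4 and 3 of 18, and 6 and 2 of 16. The lower share of glycolysis genes in ionocyte-like cells was above the 10.4% of all genes, with a median of -0.043 (log2). For mitochondrial stress genes they were 0 and 4 of 19, and 1 and 3 of 19. In untreated ionocyte-like cells 13 of 17 glycolysis genes were above intercalated duct-like cells and 2 below, against 22.0% and 21.1% of all genes.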

How the data were processed

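The authors deposited whole-number UMI counts per gene and hashtag counts per barcode, which per the submitters' processing notes came from Cell Ranger 6.1.2 and mm10. How reads shared by near-identical gene copies were counted is not given in the sources used here. Mice were assigned by hashtag with HTODemux (Seurat 5.3.0), and barcodes with 2 hashtags, none, or a high Scrublet score (scanpy 1.11.5) were left out. Cells were clustered on 2000 variable genes, without respiratory chain and mitochondrial genes, and clusters were named from markers. Counts were summed per mouse and class, in classes with at least 20 cells in each mouse, and tested with edgeR 4.0.16 (quasi-likelihood F test, filterByExpr, TMM, Benjamini-Hochberg over all genes, threshold 0.05, the mouse as a block between classes of 1 library). DESeq2 1.42.0, plain library totals (chosen after seeing the data), other filters, other limits on the mitochondrial share, and leaving out each mouse were alternatives. The script was tested on simulated data. Ratios were compared by an exact permutation test over mice. The members and lists were chosen with earlier results of these data known. Named with values were the mitochondrially encoded members, the member of each role with the largest passing change in each direction at a mean of at least 10 CPM, the restricted forms with their common forms, and Sdha, Uqcrc1, Cox5a and Atp5b; others are named as partners of a role or were chosen after their values were seen. Hashtag numbers only name mice and do not pair them across libraries. Intervals between mice cover these mice only.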

Additional observations from a re-analysis of the deposited data

Results flagged for a closer look

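The change after irradiation differed between ionocyte-like and granular duct-like cells for 21 members, by the edgeR test of the difference itself with the mouse as a block (adjusted p under 0.05). Each value is the log2 change in ionocyte-like minus that in granular duct-like cells. Of the mitochondrially encoded members, these were mt-Nd2 at 0.42, mt-Nd3 at 0.58, mt-Nd5 at 0.44 and mt-Nd6 at 0.72 for subunits of complex I, mt-Co1 at 0.50, mt-Co2 at 0.50 and mt-Co3 at 0.47 for complex IV, mt-Atp8 at 0.48 and mt-Atp6 at 0.51 for ATP synthase and mt-Cytb at 0.31 for complex III. In each of these the change was less negative in ionocyte-like cells. Among nuclear members with a lower change in ionocyte-like cells, complex IV had Cox6a1 at -0.36, Cox6b2 at -2.35, Cox8b at -2.49, Cox7a2 at -0.33 and Cox6c at -0.34, complex III had Uqcr10 at -0.38, and complex I had Ndufa1 at -0.36 and Ndufb2 at -0.37 among accessory subunits and Ndufaf2 at -0.61 among assembly factors. The assembly factors Ndufaf5 at 0.86, for complex I, and Sdhaf1 at 1.64, for complex II, had the higher change there. The value of Cox8b measures no size of change. In ionocyte-like cells it stood at 4.57, 3.84 and 9.75 CPM in untreated and 0, 0.813 and 0 CPM in irradiated mice, too low to be tested there alone, and it entered the test of the difference through granular duct-like cells, where it is high. Its call was lost without untreated mouse 3. The value of Cox6b2 rests on a very low untreated granular duct-like level, so its size is uncertain too.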

How the results depend on the processing

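Counts are given as higher and lower members. With plain library totals, nuclear counts were 58 and 0 for irradiation over all cells, 1 higher for the difference between classes, 81 and 1 for ionocyte-like against granular duct-like cells, 33 and 20 for granular against intercalated duct-like cells, 0 and 93 for acinar-like cells, and 39 and 18 for myoepithelial-like cells. Mitochondrially encoded counts became 1 higher for irradiation over all cells, 1 higher for the basal sort, 6 and 1 for ionocyte-like against granular duct-like cells, 0 and 13 for acinar-like and 3 and 3 for myoepithelial-like cells. The same scaling turned the sign of some members (log2), for irradiation over all cells Atp5b 0.057, Ndufs1 0.10 and Sdhd 0.048, for ionocyte-like against granular duct-like cells Atp5a1 0.094, Cox4i1 0.13, Ndufa1 0.14, Sdha 0.13, Sdhb 0.097, Uqcrc1 0.23 and Uqcrc2 0.092, for granular against intercalated duct-like cells Cox8a -0.076 and Ndufa4 -0.0059, for myoepithelial-like cells Cox7a2 0.019. At a 40% and at no mitochondrial limit, irradiation over all cells gave 19 and 19 nuclear members lower, granular duct-like cells 6 and 7 higher and 45 and 44 lower, the difference between classes 4 and 5 lower, and ionocyte-like against granular duct-like cells 18 and 17 higher. The log2 ratio differences were then -1.57 and -1.88 in all, -1.85 and -2.27 in granular duct-like and -1.14 and -1.21 in ionocyte-like cells after irradiation, and -0.36 and -0.66 for the basal sort. Mice assigned by hashtag share gave ratio differences of -1.32 and -0.17 and 2 nuclear members lower over all cells. DESeq2 gave 1 higher and 2 lower nuclear and 6 higher mitochondrially encoded members for the difference between classes, and 10 higher for myoepithelial-like cells. Clustering with respiratory genes gave 1 higher for the difference between classes. Same-numbered mice of different libraries did not deviate together (correlations -0.19 to 0.04), and with the number as a replicate block irradiation over all cells gave 8 higher and 4 lower nuclear members. Without the replicate block of the mouse, the difference between classes had 1 higher and 2 lower. Leaving out 1 mouse, nuclear counts ranged over 8 to 15 higher and 2 to 7 lower for irradiation over all cells, 7 to 12 higher and 17 to 24 lower for granular duct-like cells, 4 to 5 higher and 23 to 39 lower for ionocyte-like cells, 1 to 1 higher and 1 to 6 lower for the difference between classes, 22 to 24 higher and 10 to 16 lower for ionocyte-like against granular duct-like cells, 20 to 29 higher and 3 to 6 lower for acinar-like cells and 10 to 16 higher and 33 to 38 lower for myoepithelial-like cells, and mitochondrially encoded counts over 6 to 12 higher for the difference between classes, and 6 to 10 and 5 to 10 lower for ionocyte-like against granular duct-like and for myoepithelial-like cells. The ratio ranged over -0.019 to 0.057 for the basal sort. Of the values of single members under these settings, 2166 kept direction and call, 185 lost the call and 13 turned. Why these values moved was not tested. Hashtag shares were not run for class comparisons that use the untreated whole epithelium, since a mouse held under 20 cells. The same limit left irradiated intercalated duct-like and endothelial-like cells untested. Precision is limited by 3 mice and 1 library per condition.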

Other observations

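Barcodes without a hashtag could not be given to a mouse and entered no comparison. In the untreated epithelium their ratio of mitochondrially encoded to nuclear member UMIs was 3.73 over 621 acinar-like, 2.32 over 227 granular duct-like, 1.90 over 157 ionocyte-like and 1.29 over 535 intercalated duct-like barcodes. In the irradiated epithelium it was 1.08 over 70 granular duct-like and 1.12 over 93 ionocyte-like barcodes. In the basal sort it was 2.53 over 873 basal duct-like barcodes.

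Cox4i2 and Ndufa4l2, forms of complex IV subunits known from low-oxygen settings and pericytes, stood at 0, 41.9 and 27.4 and 0, 119 and 49.2 CPM in the myoepithelial-like sums of mice 1, 2 and 3. The 5 pericyte markers summed to 7.54, 553 and 235 CPM in the same sums. Both members were highest in the mouse with the highest pericyte marker level, and the part of pericytes in these values was not tested.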
